A study of Mus musculus with 12 samples.

Results

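The 7 genes described here encode GABA-A receptor subunits: the alpha subunits Gabra2, Gabra3, Gabra4 and Gabra5, the beta subunits Gabrb1 and Gabrb2, and the delta subunit Gabrd. They were taken by name from a fixed list, and all 7 were found among the 15191 genes of the gene table. Their 74 exon bins were found among 156805 bins of the exon table. Among 143 sites of the editing table, 1 lay in these genes, the I/M site of Gabra3. The tissue was frontal cortex, taken from male mice of the C57BL/6 strain. The 6 knockout libraries had the genotype Adar2-/-/Gria2R/R, and the 6 control libraries, from litter mates, had Adar2+/+ Gria2R/R. Every mouse in the comparison therefore carried the Gria2R allele, in which the gene itself encodes the arginine that editing would otherwise create in this AMPA receptor subunit. The files give group values and p-values made by the authors and no value per library, so no SD and no depth per library or per site can be given. The labels tie libraries to mice only through the number of cortices, and p-values of genes and bins may measure only the spread between these libraries. The editing percentages are group values, and it is not given what spread their p-values measure.

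GABA-A receptors are chloride channels built from several subunits around a central pore, and they carry most fast inhibition in the cortex. GABA binds between alpha and beta subunits, and the alpha subunit largely sets where in the neuron the receptor sits and how it responds to benzodiazepines. ADAR2, the enzyme encoded by Adarb1, changes adenosine to inosine in base-paired RNA, and ribosomes and sequencers read inosine as guanosine. In Gabra3 this change turns an isoleucine codon into a methionine codon in the third transmembrane segment of the alpha3 subunit, a recoding known to rise during brain development and to alter the kinetics of alpha3 channels.

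The coding sequence around the recoded codon is shown for the 4 alpha subunits, because it shows which of them could be recoded in the same way. ATA is the isoleucine codon that becomes a methionine codon when its last base is read as G. The GENCODE M21 coding sequence of Gabra3, on build GRCm38 and the minus strand of chromosome X, has 34 isoleucine codons, 7 of them ATA. Codon 342, in exon 9 of the transcript, was the ATA codon at which the other 3 alpha subunits also had isoleucine when the sequences were aligned, and it lies in the segment where the I/M site is known to be. The mm9 position of the editing table was not carried over to this sequence. Each line holds 30 bases from 5′ to 3′, with the aligned codon in capitals.
Gabra3: gccatggactggttcATAgccgtctgttat
Gabra2: gccatggactggtttATAgctgtttgttat
Gabra4: gccatggattggttcATAgctgtctgtttt
Gabra5: gccatggactggttcATTgctgtctgctat

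The alpha subunits were nearly alike in this window, with 27 of 30 bases equal to Gabra3 in each of Gabra2, Gabra4 and Gabra5. The codon was chosen as one at which all of them have isoleucine, so part of this likeness is built in. Gabra2 (codon 317) and Gabra4 (codon 323) also had ATA there, while Gabra5 (codon 324) had ATT, which an A-to-G reading does not turn into a methionine codon. The aligned codon was a leucine codon in Gabrb1 (CTC) and Gabrb2 (CTA) and a phenylalanine codon in Gabrd (TTT), and 16, 18 and 15 of the 30 bases equalled Gabra3 in these 3 genes. Editing of the ATA codons in Gabra2 and Gabra4 was not analysed here.

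The exon around the codon was folded in silico, since ADAR enzymes need base-paired RNA. For the 212 bases of Gabra3 exon 9, the structure of lowest energy (-63.9 kcal/mol) placed the last base of codon 342 unpaired within a hairpin of 46 bases. The arms of this hairpin are shown because they frame this base, which is taken here as the edited one.
Gabra3 5′ arm: ggcatacgcgacggc
Gabra3 3′ arm: gccgtctgttatgcc
These arms, of 15 bases each, formed 14 base pairs outside the base taken as edited, which stands directly before the 3′ arm. Between the arms 5 more pairs were predicted. In the exons of Gabra2 (203 bases) and Gabra4 (260 bases) the corresponding base was predicted to be paired, in structures of -54.0 and -55.4 kcal/mol. Directly outside this base lay 3 pairs in Gabra2 and 1 in Gabra4, and 3 and 35 pairs, its own among them, lay inside. In Gabra5 the corresponding base, a T, was paired as well, at -59.7 kcal/mol, with 4 pairs directly outside it and 29 inside. Because the pair of the base itself is left out of the outer count, these counts cannot be compared with the 14 pairs in Gabra3. The length of the helix that holds the base was not measured in Gabra2, Gabra4 and Gabra5. Energies of exons that differ in length cannot be compared directly. These are predictions from the letters of single exons and no measurement of structure.

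Editing of Gabra3 fell sharply without ADAR2. In the authors' deposited table, 19.1% of reads at the I/M site (chromosome X, position 69690631 on mm9) were edited in Adar2-/- cortex, against 96.3% in Adar2+/+ cortex. Editing fell by 77.2 points (adjusted p = 6.7e-157 by the authors' deposited table). Reads without the edit made up 80.9% in Adar2-/- cortex and 3.75% in Adar2+/+ cortex, computed from the authors' deposited table. The site kept 19.8% of its control level in Adar2-/- cortex. The spread between libraries and the coverage behind these percentages are unknown, and the p-value may not measure a spread between libraries.

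**Figure D1:**
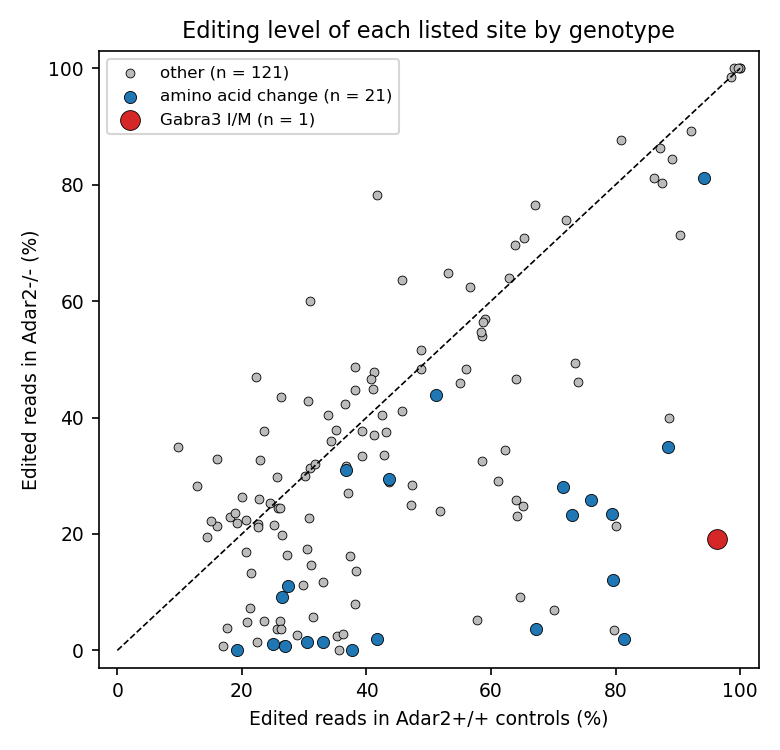
Percent of edited reads at each of 143 listed sites, with Adar2+/+ controls on the x axis and Adar2-/- on the y axis. Each point is 1 site and the dashed line marks equal levels. The Gabra3 I/M site, in red at 19.1% in Adar2-/- and 96.3% in controls, lies far below the line at its right end.

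Among the 22 sites that recode an amino acid, Gabra3 had the highest level in controls and ranked 10 from the top in Adar2-/- cortex. Its difference in points was second in size among these 22 sites and also among all 143. In the authors' deposited table, 19 of the 22 sites fell (86.4%), as did 56 of all 143 (39.2%), so a fall as such was common and does not set Gabra3 apart. The site ranked first was Y/C of Grik2, a kainate receptor subunit, at 1.97% in Adar2-/- and 81.3% in Adar2+/+ cortex in the authors' deposited table (difference -79.3 points). Next below Gabra3 among the 22 recoding sites, and ranked 4 among all 143, came K/E of Cyfip2, a subunit of the WAVE actin regulator, at 12.2% in Adar2-/- and 79.6% in Adar2+/+ cortex in the authors' deposited table (difference -67.4 points). Counted as the share of the control level that remained, Gabra3 took a middle place, 11 of 22 from the lowest, with 2.42% remaining for Grik2 Y/C and 15.3% for Cyfip2. Differences between sites were not tested.

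Among the 9 sites with at least 90% edited reads in Adar2+/+ cortex, Gabra3 had the lowest level in Adar2-/- cortex. The cutoff of 90% was a choice, and lower levels in Adar2-/- cortex were found below it. Grik2 Y/C, for one, stood at 1.97% in Adar2-/- and 81.3% in Adar2+/+ cortex in the authors' deposited table. Of the 9 sites, 2 fell and 7 missed the threshold by the authors' deposited table. The other one that fell was R/G of Gria3, an AMPA receptor subunit that is also encoded on chromosome X, at 81.2% in Adar2-/- and 94.3% in Adar2+/+ cortex in the authors' deposited table. Gria3 thus kept 86.1% of its control level, against 19.8% for Gabra3, and this difference between the sites was not tested. The 7 sites that did not pass lay between 71.4% and 100% in Adar2-/- cortex and between 90.3% and 100% in Adar2+/+ cortex in the authors' deposited table. Their medians were 99.96% and 98.95%, so most stood near the ceiling in both genotypes. None of these 7 is listed with an amino acid change, so they are unlike Gabra3 and Gria3 in that respect.

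The 3 sites nearest to Gabra3 in both levels together all lay below it in controls. A 3′ UTR site of 2610005L07Rik stood at 21.4% in Adar2-/- and 80% in Adar2+/+ cortex in the authors' deposited table, 16.4 points away. R/G of Gria4, another AMPA receptor subunit, was 17.3 points away with 23.4% in Adar2-/- and 79.5% in Adar2+/+ cortex in the authors' deposited table. Q/R of Grik2 was 17.7 points away, at 35.0% in Adar2-/- and 88.4% in Adar2+/+ cortex in the authors' deposited table. Likeness here is the straight-line distance over 2 group values.

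The mRNA levels of the subunits were compared next. The gene table names its conditions only A and B, so no genotype is attached to the direction of a gene, and differences are given as A over B. Adarb1, the targeted gene, had a log2 difference of -2.21 by the authors' deposited table (adjusted p = 3.06e-126), and this was not used to name the conditions. None of the 7 subunit genes passed at an adjusted p of 0.05 in this table, whose form is that of DESeq, and 0 were under 0.05 before adjustment. Over all 15191 genes, 3 passed (0.0197%) and 283 had an unadjusted p under 0.05 (1.86%). In bulk RNA, fewer cells of a type and less RNA per cell cannot be told apart.

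Among the alpha subunits, Gabra3 itself had a mean count of 4048 over both conditions and a log2 difference of -0.02 in the authors' deposited table (p = 0.876). The total level of Gabra3 mRNA, edited and unedited together, was thus close to equal between conditions. Gabra4, whose subunit joins delta in receptors outside synapses, had a mean count of 4916 and a log2 difference of -0.01 by the authors' deposited table (p = 0.868). Gabra2, whose subunit is enriched at axon initial segments, had a mean count of 2682 and a log2 difference of 0.0042 by the authors' deposited table (p = 0.994). The log2 differences of these 3 genes were smaller in size than those of the other 4 members.

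Gabra5, whose subunit carries tonic inhibition, had the largest difference of the 7. Its mean count was 1706 and its log2 difference -0.11 in the authors' deposited table (p = 0.158), and 1084 genes in the table had a smaller p. Gabrd, which encodes the delta subunit of receptors outside synapses, had a mean count of 2269 and a log2 difference of -0.06 by the authors' deposited table (p = 0.617). The beta subunits help form the GABA binding site, and the values of both were above 0. Gabrb1 had a mean count of 1920 and a log2 difference of 0.07 by the authors' deposited table (p = 0.421). Gabrb2 had a mean count of 16273 and a log2 difference of 0.03 by the authors' deposited table (p = 0.773). The adjusted p was listed as 1 for each of the 7 genes.

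**Figure D2:**
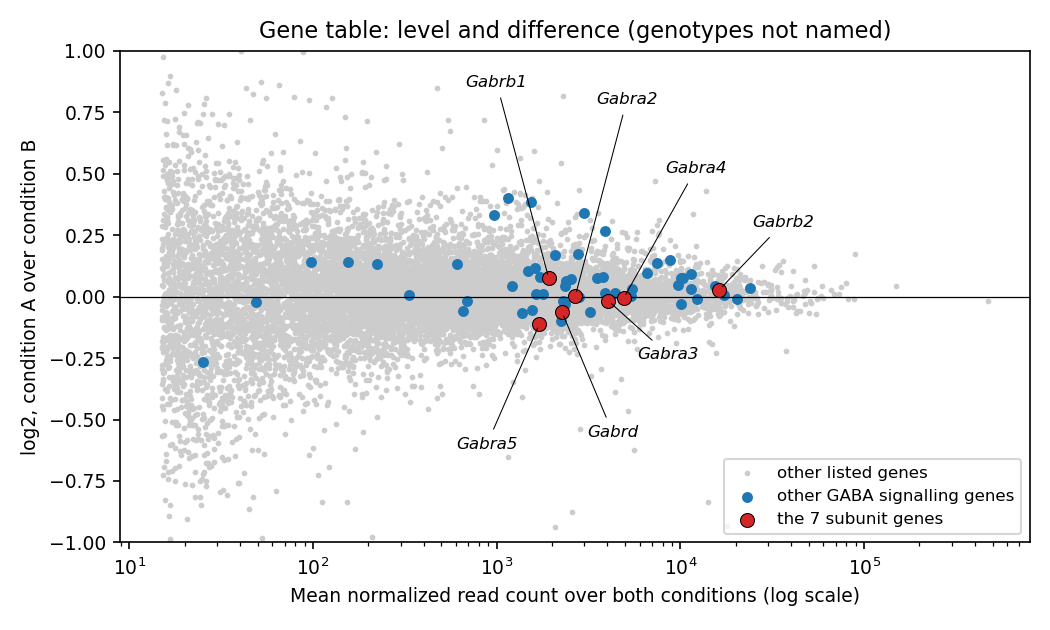
Log2 difference, condition A over condition B (y axis), against the mean normalized read count over both conditions (x axis, log scale), with 1 point per listed gene and no error bars because the table gives none. The 7 subunit genes (red) lie between -0.11 and 0.07. The axis ends at 1 in either direction, and 33 genes beyond it are not drawn.

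As a group the subunits showed no common direction: 3 were higher and 4 lower in A, with a median log2 difference of -0.01 beside 0.01 over all listed genes. The members were well expressed, with means over both conditions from the 73.7th percentile of listed genes for Gabra5 to the 98.7th for Gabrb2.

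Levels of different genes can be set side by side only per length. With the annotated exons of each gene merged (GENCODE M21), Gabrb2 stood highest at 2559 mean counts per kb of exon, followed by Gabra3 at 1032, Gabra4 at 808, Gabrd at 789, Gabra5 at 574, Gabra2 at 351 and Gabrb1 at 139. With the longest coding transcript as the length, Gabrb2 was again first at 4079 counts per kb. Gabra4 at 1197, Gabrd at 1181 and Gabra3 at 1105 then stood close together, and Gabra5 (639), Gabra2 (458) and Gabrb1 (140) kept the lower places. The order of Gabra3, Gabra4 and Gabrd thus depends on the length used, and without values per library no neighbours in this order can be called different. Both lengths include untranslated bases, and only 1422 of the 13737 bases of the Gabrb1 transcript are coding. The lower places may therefore also change with coding bases alone as the length, which was not used. The annotation behind the counts is on mm9 and its exon lengths may differ.

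Exon usage asks whether single exon bins change relative to the rest of their gene, and its table names the genotypes. Because the values are relative, a mix of signs within a gene is built into the measure. By the authors' deposited table, in the form of DEXSeq output, 0 of the 74 bins of the 7 genes passed at an adjusted p of 0.05, against 11 of all 149137 bins with a p (0.00738%). The other 7668 listed bins have no p, and none of them lay in the 7 genes. Each of the 74 bins had an adjusted p listed as 1. Of the 74, 35 were higher and 39 lower in Adar2-/- cortex, with a median log2 value of -0.01, beside 0.0007 over all bins. The median absolute log2 value was 0.05 for the 74 bins and 0.07 for all bins. The median dispersion was 0.0083 for the 74 bins and 0.0159 for all bins, so these sizes are not set side by side at like precision. Mean counts of the 74 bins ran from 67.6 to 7161.

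An unadjusted p under 0.05 was found for 3 of the 74 bins (4.05%), beside 1.67% of all bins, which differ from the 74 in dispersion. These 3 bins lay in 3 genes and did not share a direction. Bin E008 of Gabrb2 had a log2 value, Adar2-/- over control, of 0.19 in the authors' deposited table (p = 0.0235). Bin E002 of Gabrd had one of 0.14 in the authors' deposited table (p = 0.0463). Bin E007 of Gabra3 had one of -0.17 in the authors' deposited table (p = 0.038). With a Simes p per gene, which combines all bins of a gene, the adjusted p over all genes with bins was 1 for each of the 7.

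The 12 listed bins of Gabra3 split evenly, 6 higher and 6 lower in Adar2-/- cortex. After E007, the next lowest value was that of E006 at -0.13 (p = 0.152), and the highest was E009 at 0.11 (p = 0.232), in the authors' deposited table. E001, which holds 36.5% of the summed mean counts of the Gabra3 bins, was at 0.04 in the authors' deposited table (p = 0.511). The table gives no coordinates, so the bin that holds the edited codon is not named here.

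In Gabrb2, the first 3 of 15 listed bins were mixed in sign, with log2 values of 0.18 for E002, 0.01 for E003 and -0.03 for E004 in the authors' deposited table. The 5 listed bins from E005 to E009 were all higher in Adar2-/- cortex, with log2 values from 0.0033 to 0.19, and the 7 listed bins from E011 to E018 were all lower, from -0.14 for E012 to -0.02. The lowest p in these runs was 0.0235 for the first and 0.131 for the second in the authors' deposited table. The runs were picked after their values were seen. E018, the largest bin with a mean count of 7161, was at -0.05 in the authors' deposited table (p = 0.398).

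In Gabrd, 8 of 10 listed bins were lower in Adar2-/- cortex, down to -0.15 for E005 (p = 0.47), in the authors' deposited table. That bin had a mean count of 68.5 and a dispersion of 0.0678, where the median of all bins was 0.0159. Gabra2 and Gabra4 had the narrowest ranges of bin values, from -0.05 for E007 to 0.08 for E010 in Gabra2 and from -0.05 for E002 to 0.09 for E005 in Gabra4, in the authors' deposited table. Their lowest p-values were 0.489 and 0.24. Gabra5 ran from -0.10 for E004 to 0.13 for E002, whose p of 0.149 was its lowest, in the authors' deposited table. Gabrb1 ran from -0.13 for E007 to 0.08 for E005 in the authors' deposited table, and its lowest p, 0.224, was that of E008 at -0.11.

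**Figure D3:**
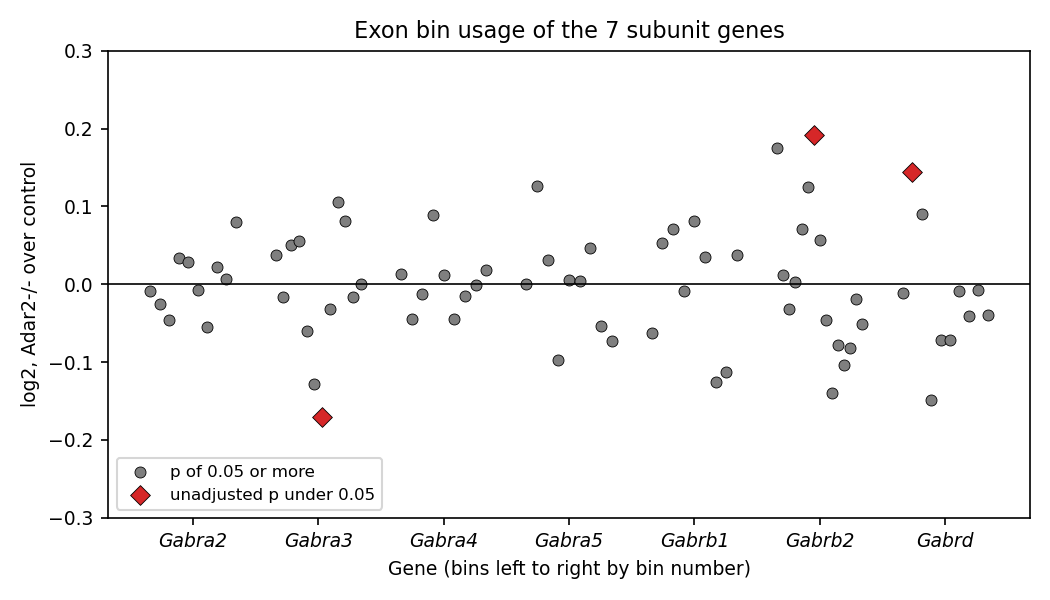
Log2 usage of each listed exon bin, Adar2-/- over control (y axis), for the 7 subunit genes, with bins of a gene from left to right by number and 1 point per bin. Points scatter around 0 between -0.17 and 0.19, and the 3 red diamonds (unadjusted p under 0.05) lie in Gabra3, Gabrb2 and Gabrd.

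Other genes of GABA signalling were read from 6 lists, of which 53 of 59 genes were measured. In the authors' deposited gene table, 0 of the 53 passed at an adjusted p of 0.05, beside 0.0197% of all genes. Before adjustment 1 was under 0.05, beside 1.86% of all genes. Of the 53, 38 were higher and 15 lower in A, where 8031 of all 15191 genes were higher in A. The median log2 difference of the 53 was 0.04, beside 0.01 over all genes. The gene with an unadjusted p under 0.05 was Plcl1, which encodes a phospholipase-like protein that binds GABA-A receptors and takes part in their trafficking. It had a mean count of 1156 and a log2 difference of 0.40 by the authors' deposited table (p = 0.000613, adjusted p = 0.787).

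Of 6 other GABA-A subunit genes measured, 3 were higher and 3 lower in A, with a median of -0.01. The smallest p among them belonged to the gamma subunit gene Gabrg3, with a mean count of 1554 and a log2 difference of -0.06 by the authors' deposited table (p = 0.465). Among 23 genes of the inhibitory synapse and receptor trafficking, 18 were higher in A, with a median of 0.06. Of 9 genes of GABA synthesis, transport and breakdown, 7 were higher in A, with a median of 0.13. The smallest p among these 9 was that of Aldh5a1, which encodes an enzyme that completes GABA breakdown, with a mean count of 2076 and a log2 difference of 0.17 by the authors' deposited table (p = 0.117).

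The 6 genes of the GABA-B receptor, which couples to G proteins, had a median of 0.04, and Kctd8, an auxiliary subunit, had a mean count of 223 and a log2 difference of 0.13 by the authors' deposited table (p = 0.239). The 7 genes that set neuronal chloride had a median of 0.01, and the kinase gene Wnk1 had a mean count of 3892 and a log2 difference of 0.27 by the authors' deposited table (p = 0.34). Of the 2 modulator genes, Tspo, a mitochondrial membrane protein linked to steroid synthesis, had a mean count of 97.7 and a log2 difference of 0.14 by the authors' deposited table (p = 0.269). Apart from Plcl1, the genes named from these lists had an adjusted p listed as 1.

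**Figure D4:**
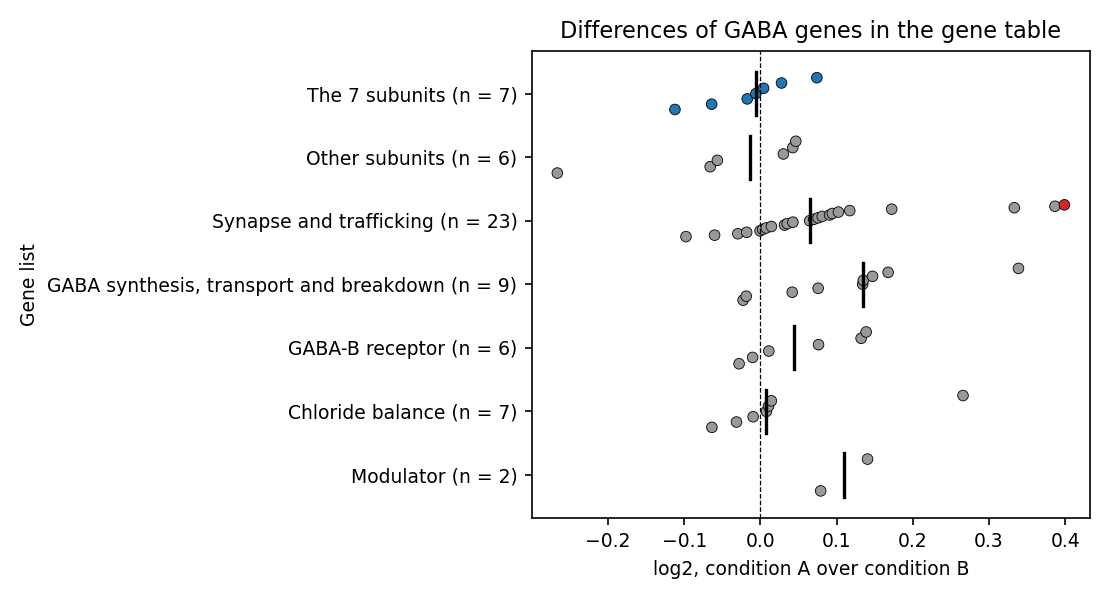
Log2 difference, condition A over condition B, of the 7 subunit genes and of the measured genes in 6 lists of GABA signalling, with 1 point per gene and the median as a bar. The 7 subunits lie between -0.11 and 0.07, and the red point is Plcl1 at 0.40, the gene with an unadjusted p under 0.05.

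Markers of cell types were read from the same table, since the subunits are expressed unevenly between brain regions and cells. All 6 markers of cortical excitatory neurons and all 7 of interneurons were measured, with means from 384 to 17440 and from 244 to 8817 counts. Of 3 cerebellar markers 1 was measured, at a mean of 21.3. Interneuron markers were higher in A for 7 of 7, with a median log2 difference of 0.13, and astrocyte markers for 3 of 4, with a median of 0.14. Excitatory neuron markers were higher in A for 4 of 6 (median 0.13), striatal projection neuron markers for 6 of 8 measured (median 0.19), thalamic markers for 2 of 5 (median -0.01), oligodendrocyte markers for 0 of 3 (median -0.09) and microglia markers for 3 of 4 (median 0.05). These counts stand beside 8031 of 15191 genes higher in A in the whole table, and Gad1, Gad2 and Slc32a1 are counted both among the 7 interneuron markers and among the 9 genes of GABA synthesis, transport and breakdown. None of these markers passed by the adjusted p in the table, and 1 of 38 measured markers (2.63%) had an unadjusted p under 0.05, beside 1.86% of all genes. It was Ppp1r1b, a marker of striatal projection neurons that encodes an inhibitor of protein phosphatase, with a mean count of 638 and a log2 difference of 0.30 by the authors' deposited table (p = 0.00242, adjusted p = 1). The part of these markers in the subunit values was not tested.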

How the data were processed

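RNA-seq libraries from 12 frontal cortices were compared by genotype, as the labels give it. Per the submitters' processing notes, reads were handled with SAMtools 01.19.0, TopHat2 2.0.6, HTSeq, Bowtie2 2.02.0 and DESeq on build mm9, in roles not given there. Per the labels, libraries were stranded total RNA after ribosomal RNA removal. The gene table holds the authors' mean normalized counts (a signal in the form DESeq writes), the authors' ratio of condition B over A, its log2 as deposited, and deposited p-values. The 2 columns that give each condition's mean were left out, as their headers name no genotype. Signs were turned here to A over B, and in the exon table from control over Adar2 to Adar2-/- over control. The exon table holds deposited mean normalized counts, log2 values, p-values and a dispersion score by the authors. The editing table holds the authors' percent of edited reads per group, a deposited adjusted p-value and another deposited value, the position. How sites were called, covered, pooled and tested is not given. The lowest listed mean was 15.0 counts for genes and 20.0 for bins.

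The planned tests on values per library could not be run, so the deposited adjusted p was used with a threshold of 0.05. For the gene with the smallest p it was 25289 times the p, so it was made over more tests than the 15191 listed genes. Exon bins were matched to genes by Ensembl ID (7 of 7 genes). Coding sequences came from GENCODE M21, aligned with Biopython 1.88 and folded with RNAfold 2.7.2. Named were all 7 members, the bin of each gene with the smallest p, the highest and the lowest value or an unadjusted p under 0.05, the gene of each GABA list with the smallest p, any listed gene or marker with one under 0.05, the 3 nearest editing sites and the neighbours in rank. Alternatives were other thresholds, renewed adjustment in pandas 2.3.3, count minimums and other averages. The members and lists were chosen with earlier results of these data known. The adjustment was tested on simulated data.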

Additional observations from a re-analysis of the deposited data

How the results depend on the processing

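The Gabra3 editing difference stayed past the threshold at an adjusted p under 0.01. It also did so with Bonferroni adjustment on top of the deposited adjusted p (9.58e-155). Both settings reuse the deposited percentages and p-value, so they could not change the direction and are no independent check. As a difference in log odds, computed from the same 2 percentages and not tested, the change in Gabra3 editing was -4.69. No member gene and no member bin passed at an adjusted p under 0.1, with adjustment over the listed rows alone, or with a mean count of at least 100 for genes and 50 for bins. Taken without adjustment, 3 bins and 1 of the other GABA genes had a p under 0.05, in place of 0 and 0, since that rule makes no correction for the number tested. The Simes p per gene, an alternative added after the data were seen, called 0 of 7 genes. For the 7 genes the median log2 difference stood at -0.0059. It was -0.013 as a mean and -0.00083 without Gabra3, and its sign turned to 0.00503 when weighted by counts. With no values per library, no spread is at hand to set these against.

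Leaving out libraries could not be run without values per library. No paired analysis was possible because the tables give group values alone and the library numbers mark no litter. Depth per library and coverage per site are unknown.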
